A study of Mus musculus with 3 samples.

Results

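The genes examined are the nuclear genes of oxidative phosphorylation, the route by which mitochondria pass electrons from NADH and succinate to oxygen and use the energy to make ATP. They were chosen by symbol alone: the table's rows were searched for the name stems of the subunits of complexes I to V, together with Cyc1 and Cycs. The search found 88 rows, of which Atp5l-ps1, a pseudogene by its name, was left out and was listed at 0 in every mouse. The remaining 87 genes stood among 28074 gene symbols in the table. They comprised 35 genes of complex I, 4 of complex II, 9 of complex III, 20 of complex IV, 18 of complex V and the single gene Cycs for cytochrome c.

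RNA was sequenced from acute myeloid leukemias that had arisen in 3 mice, which form 1 group. All 3 mice carried a homozygous deletion of miR196b (miR196b-/-), a microRNA gene of the Hoxa cluster, together with Flt3 ITD/ITD (an internal tandem duplication in the Flt3 growth factor receptor), Dnmt3a fl/fl (floxed alleles of a DNA methyltransferase gene) and Mx1Cre, an inducible recombinase active in blood cells. The sample titles name the Dnmt3a genotype differently, as Dnmt3a+/-. The leukemic cells came from the spleens of moribund animals, red cells were lysed, and cells bearing c-Kit, a receptor of immature blood cells, were enriched with magnetic beads. The age of the mice is not given in the sources used here. Each mouse carries its own leukemia, so the spread between mice is a spread between separate tumours. Leukemias with intact miR196b were the study's comparison. They were not used here, so nothing below is a difference between genotypes.

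Oxidative phosphorylation works through 5 membrane complexes. Complex I takes electrons from NADH and complex II from succinate, complex III passes them to the small protein cytochrome c, complex IV hands them to oxygen, and complex V, the ATP synthase, lets protons flow back and makes ATP. All but complex II are built from subunits of both the nuclear and the mitochondrial genome, and several subunits of complex IV exist as a widespread form and a form restricted to tissues such as heart, skeletal muscle, lung or testis. Acute myeloid leukemia cells are known for leaning on this pathway.

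Values are TPM, a transcript's abundance per length scaled to a fixed total, as deposited, and levels can therefore be set beside each other between genes. TPM keeps no read depth, so the depth reached per library is unknown beyond the number of reads planned, and the only error available is the SD over 3 mice. A gene is counted as expressed at a mean of at least 1 TPM, and logarithms are of TPM + 1. In this bulk RNA, fewer cells of a type and less RNA per cell cannot be told apart.

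The labels were set beside their genes. Dnmt3a stood at 52.2, 64.9 and 54.6 TPM in mice 1, 2 and 3, and Flt3 at 146, 157 and 106 TPM. Gene-level values do not separate altered from intact alleles, and miR196b itself was not analysed here. Kit, the gene of the enrichment marker, stood at 139, 149 and 133 TPM. All 5 genes of the c-Kit progenitor list were expressed and summed to 738, 611 and 581 TPM, with 4 of them lowest in mouse 3. Of the list, Cd34 stood at 202, 141 and 137 TPM, Myb at 193, 124 and 171 TPM and Meis1 at 56.3, 40.1 and 34.0 TPM, each highest in mouse 1. Genes of other cells were present to differing degrees. The 6 late neutrophil granule genes summed to 2447, 6424 and 21419 TPM and were all highest in mouse 3 and lowest in mouse 1, led by S100a8 at 1034, 2529 and 8646 TPM. The 6 monocyte and macrophage genes summed to 465, 543 and 828 TPM. The 5 erythroid genes in the table of the 7 listed summed to 33.3, 21.2 and 70.5 TPM. The 4 B cell genes summed to 2.14, 3.89 and 6.34 TPM and the 5 T and NK cell genes to 8.76, 13 and 13.8 TPM, with Cd3e under 1 TPM in every mouse.

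Of the 87 genes, 81 were expressed. At least 1 TPM was reached by 82 genes in mouse 1 and by 81 in each of mice 2 and 3. The 6 that were not expressed were Cox6a2, Cox7b2, Cox8c and Ndufa4l2 of complex IV and Atp5g2 and Atp5l2 of complex V. For Atp5g2 this is uncertain, since the row Gm10231, described below, has the same letters as an Atp5g2 transcript. Gm10231 is not part of the shares given here. The 87 genes together took 1.34%, 1.21% and 1.35% of the summed TPM of all named rows, or 1.30% ± 0.0804 on average (SD, n = 3). Complex V took the most, with 0.431% ± 0.0289, and its share was above that of complex IV in each mouse. This lead depends on 1 gene, Atp5b, at 1179, 974 and 1027 TPM. The sums were 4223, 3687 and 4017 TPM for complex V and 3155, 2933 and 3337 TPM for complex IV. Complex IV took 0.341% ± 0.0218, complex I 0.322% ± 0.0223, complex III 0.157% ± 0.0108 and complex II 0.0432% ± 0.0029. The means of complexes IV and I differed by less than their SDs, although complex IV was the higher in each mouse.

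Most of these genes were among the more abundant of the leukemia. When the 15181 expressed genes of the table were ranked by mean TPM, the median position of the 81 expressed members was percentile 92.0, and 43 of them lay above percentile 90. The median level per complex, on the log2 scale over all its genes, was 7.62 ± 0.06 for complex V, 7.33 ± 0.05 for complex IV, 7.23 ± 0.13 for complex III, 6.64 ± 0.10 for complex II and 6.28 ± 0.14 for complex I (SD, n = 3). Cytochrome c stood at 5.91 ± 0.28. Complexes IV and III are neighbours in this order that were not separated over all genes, since in mouse 1 complex III had the higher median, at 7.38 against 7.33. Over expressed genes the median of complex III was 165, 138 and 146 TPM, below that of complex IV in each mouse. Complex II stood above complex I in all 3 mice. The order of complexes V and IV rests on unexpressed isoforms: over all genes complex V stood above complex IV in each mouse, while over expressed genes the median of complex IV was the higher in each, at 227, 195 and 219 TPM against 206, 192 and 217 TPM.

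**Figure D1:**
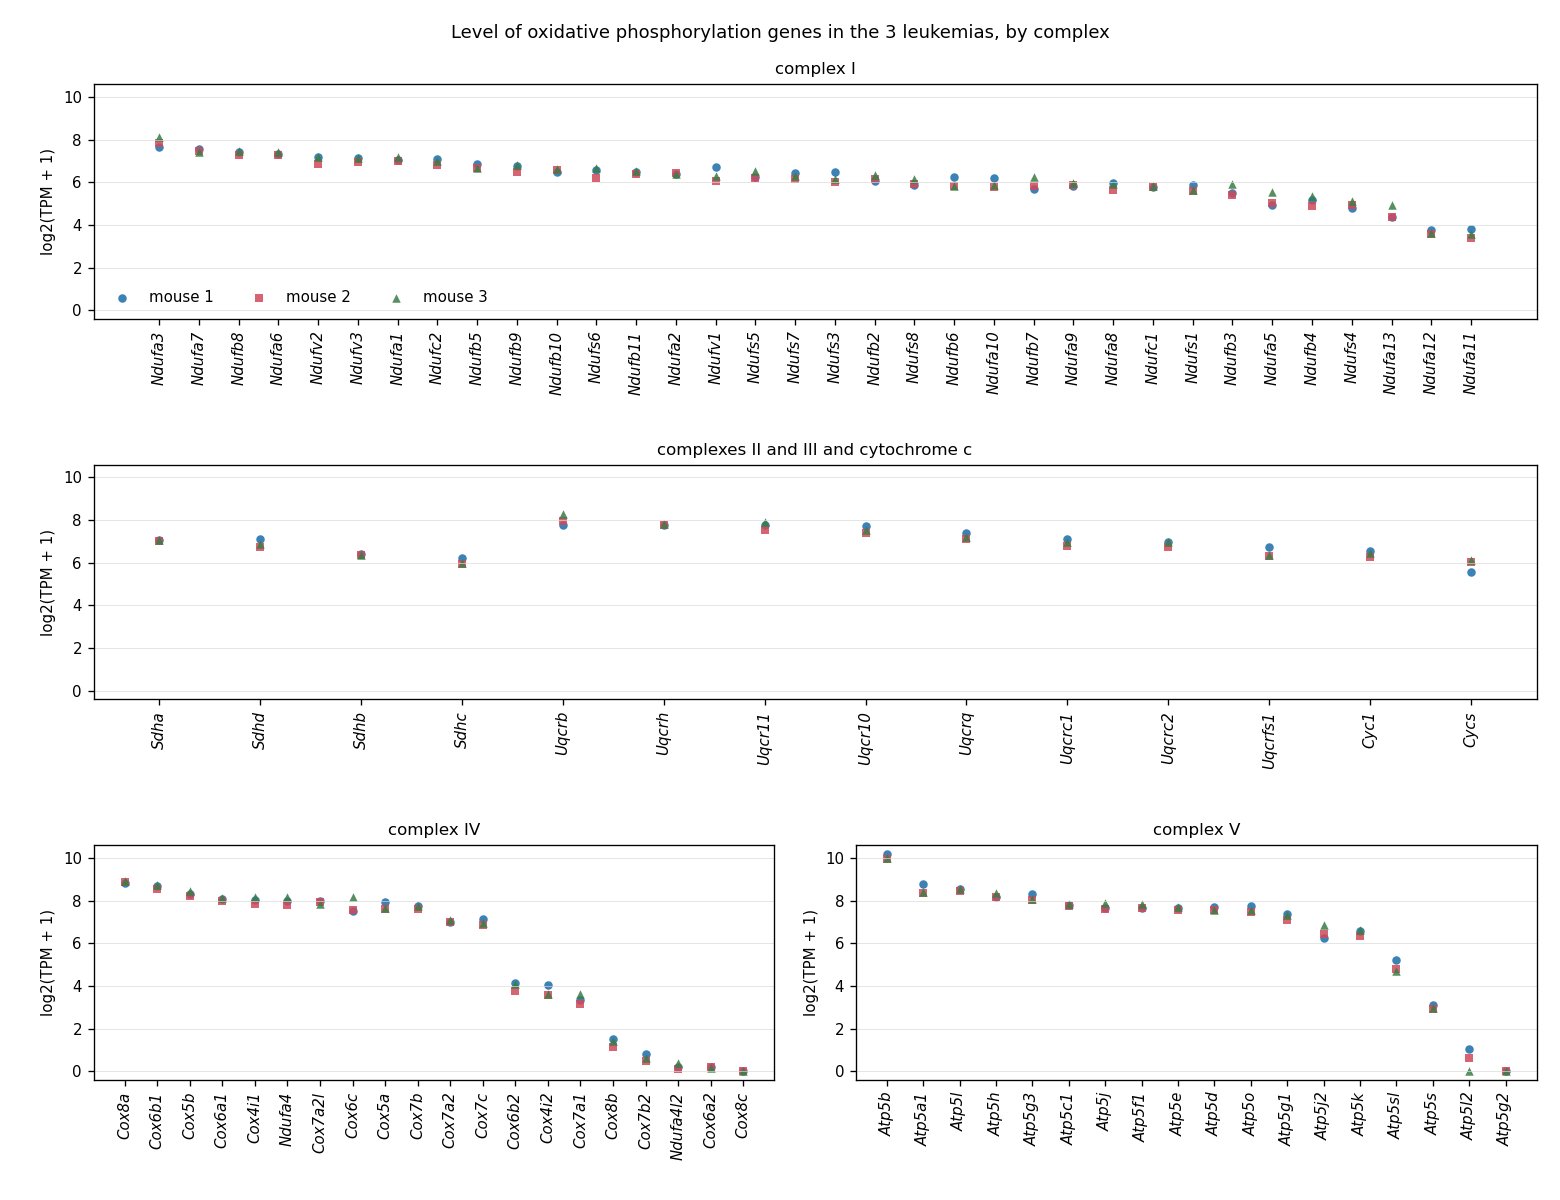
Level of the genes in each mouse, 1 gene left out, on a log2(TPM + 1) axis, with genes grouped by complex and ordered by mean. Points are single mice (circle mouse 1, square mouse 2, triangle mouse 3); the 3 points of a gene lie close together, while genes of complexes IV and V range from 0 to above 8.

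Complex I, NADH dehydrogenase, is the largest of the chain. Its 7 nuclear core subunits carry the flavin and iron-sulfur clusters that move electrons. Ndufv2, which holds an iron-sulfur cluster, was the highest of them, at 145, 116 and 143 TPM. Ndufv1, which binds NADH and the flavin, stood at 103, 66.5 and 78.5 TPM. This was the widest spread of any core subunit, with mouse 1 high and mouse 2 low. Ndufs7, which helps to form the pocket where ubiquinone binds, stood at 84.5, 69.1 and 78.5 TPM. Ndufs3 stood at 89.2, 63.0 and 70.7 TPM, Ndufs8 at 56.7, 58.6 and 70.6 TPM, and Ndufs1, the largest core subunit, at 58.0, 47.6 and 49.4 TPM. Mouse 1 was the highest for 6 of the 7 core genes, the exception being Ndufs8.

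The 28 supernumerary subunits of complex I, which surround the core and do not carry electrons, covered a wider range. The highest were Ndufa3 at 198, 229 and 280 TPM, Ndufa7 at 188, 173 and 172 TPM and Ndufb8 at 170, 155 and 177 TPM. Ndufa3 was highest in mouse 3 and Ndufa7 in mouse 1. At the other end stood Ndufa11 at 13, 9.45 and 10.8 TPM, Ndufa12 at 12.7, 11.1 and 11.5 TPM and Ndufa13 at 19.4, 19.9 and 29.5 TPM. Subunits of 1 complex that occur once each per complex therefore differed at the RNA level from a mean of 11.1 TPM for Ndufa11 to 236 TPM for Ndufa3. Ndufab1, the acyl carrier protein that is also part of complex I but has a name outside the search, stood at 172, 141 and 181 TPM.

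Complex II, succinate dehydrogenase, has 4 subunits, all nuclear, and works in the citric acid cycle as well as in the chain. Sdha, the flavoprotein that oxidises succinate, stood at 133, 127 and 134 TPM. Sdhb, the iron-sulfur subunit, stood at 84.1, 80.4 and 82.3 TPM, and its log2 SD of 0.03 was among the narrowest. The membrane anchors were Sdhc at 74.4, 60.3 and 61.5 TPM and Sdhd at 135, 106 and 116 TPM. All 4 genes were lowest in mouse 2, and 3 of them were highest in mouse 1.

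Complex III, cytochrome bc1, was led by its small subunits. Uqcrb stood at 220, 250 and 306 TPM, Uqcrh, the hinge protein, at 217, 220 and 225 TPM, and Uqcr11 at 219, 185 and 241 TPM. The subunits that carry electrons were lower: Cyc1, cytochrome c1, stood at 92.3, 75.2 and 87.7 TPM and Uqcrfs1, the Rieske iron-sulfur protein, at 107, 79.6 and 81.2 TPM. The core protein Uqcrc2 stood at 123, 106 and 124 TPM. Every one of the 3 small subunits was above each of these 3 genes in every mouse. Cycs, the mobile carrier between complexes III and IV, stood at 47.2, 64.3 and 68.0 TPM, with mouse 1 below the other two. It lies at chr6:50562563-50566538 on the minus strand (GRCm38), and Cyct, the form of testis, was listed at 0 in every mouse.

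Complex IV, cytochrome c oxidase, showed the widespread form of each subunit that has more than 1 gene. Cox8a, a small membrane subunit, was the highest at 448, 460 and 476 TPM. Cox6b1, on the outer face of the complex, stood at 415, 372 and 429 TPM, and Cox5b, a zinc-binding subunit, at 315, 297 and 354 TPM. The widespread forms of the other families were Cox6a1 at 272, 254 and 281 TPM, Cox4i1 at 261, 231 and 283 TPM, Ndufa4 at 248, 223 and 290 TPM, Cox7b at 213, 194 and 212 TPM and Cox7a2 at 125, 125 and 136 TPM. Ndufa4 is counted here because its protein is a subunit of complex IV despite its name. Of these 7 isoform families, each had its widespread gene above its restricted gene in all 3 mice.

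The restricted isoforms differed in how little of their family they made up. Cox7a1, the heart and skeletal muscle form at chr7:30184144-30186078 on the plus strand, stood at 9.25, 7.79 and 11.3 TPM and made up 6.80% ± 0.899 (SD, n = 3) of the Cox7a sum. Cox4i2, the form known from lung and from cells short of oxygen, at chr2:152754173-152765037 on the plus strand, stood at 15.4, 11 and 11.4 TPM, or 4.68% ± 0.854 of the Cox4 sum. Cox6b2, the testis form, stood at 16.7, 12.7 and 16.1 TPM, or 3.59% ± 0.283. These 3 genes were expressed in every mouse and stood well apart from the other restricted forms. Cox8b reached 1.87, 1.18 and 1.73 TPM, and with Cox8c, listed at 0, made up 0.344% ± 0.0812 of the Cox8 sum. The remaining 3 stayed under 1 TPM: Cox7b2 made up 0.269% ± 0.077, Ndufa4l2 0.0730% ± 0.0346 and Cox6a2, the muscle partner of Cox6a1, 0.0526% ± 0.006. Cox6a2 read 0.142, 0.149 and 0.132 TPM. The 6 striated muscle genes examined beside them summed to 9.30, 13.8 and 13.1 TPM. Actn2 and Myh7 were expressed, at 6.57, 10.9 and 10.5 TPM and at 1.76, 2.33 and 2.20 TPM, while Ckm and Acta1 were under 1 TPM and Myh6 and Tnnt2 were listed at 0. The part of muscle RNA in the values of Cox7a1 was not tested.

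**Figure D2:**
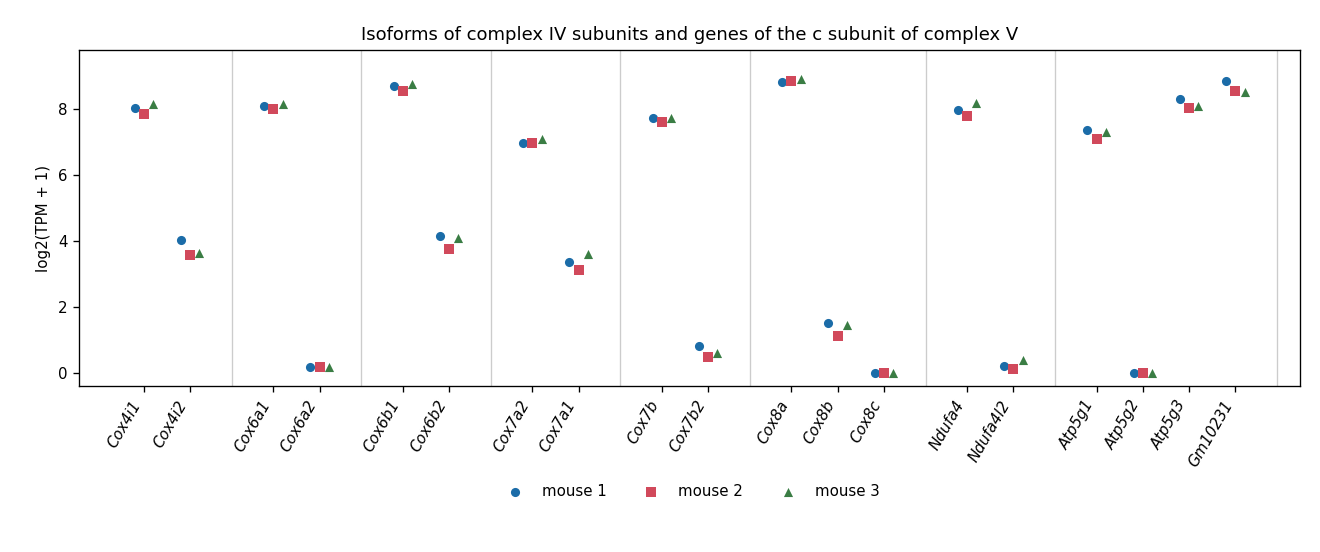
Genes of the 7 isoform families of complex IV and of the c subunit of complex V, with the pseudogene Gm10231, on a log2(TPM + 1) axis, each point being 1 mouse. The widespread isoform stands first in each panel and is above its restricted partner in every mouse; Atp5g2 lies at 0 and Gm10231 lies above Atp5g3 in each mouse.

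Of the other genes of complex IV, Cox6c had the widest spread of all 81 expressed members, with a log2 SD of 0.36. It stood at 184, 188 and 286 TPM, so that mice 1 and 2 lay together and mouse 3 stood apart. Cox5a, at 240, 195 and 200 TPM, was highest in mouse 1 and lowest in mouse 2. Cox7a2l, a protein known for joining complexes III and IV into supercomplexes, stood at 250, 244 and 226 TPM and was lowest in mouse 3. Cox7c stood at 139, 116 and 122 TPM.

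Complex V consists of the F1 head, where ATP is made, and the Fo part in the membrane. Atp5b, the catalytic beta subunit at chr10:128083273-128090391 on the plus strand, was the highest of all 87 genes, at 1179, 974 and 1027 TPM. Atp5a1, the alpha subunit, stood at 445, 324 and 334 TPM. The head holds alpha and beta in equal number, yet the Atp5b to Atp5a1 ratio was 2.65, 3.00 and 3.08 in turn, or 2.91 ± 0.229 on average (SD, n = 3). The single-copy subunits were lower still and close to each other: Atp5c1 (gamma) stood at 219, 213 and 227 TPM, Atp5d (delta) at 208, 186 and 190 TPM and Atp5e (epsilon) at 203, 189 and 207 TPM. Atp5b exceeded Atp5d 5.43 ± 0.21 times and Atp5e 5.31 ± 0.45 times.

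In the stalk and the membrane part, Atp5l (subunit g) stood at 368, 344 and 372 TPM and Atp5h (subunit d) at 290, 290 and 332 TPM. Atp5o, the protein that ties the stalk to the head, stood at 213, 174 and 187 TPM. Atp5j2 (subunit f) was lower and wider, at 75.5, 85.8 and 116 TPM, with mouse 3 the highest. The lowest expressed genes were Atp5s, at 7.53, 6.66 and 6.86 TPM, and Atp5sl, at 36.7, 26.9 and 25.2 TPM. Atp5sl has the name Dmac2 in current annotation, where its protein is known as a factor for building complex I and not as a part of the ATP synthase. Atp5l2, which the annotation lists as the pseudogene Atp5l2-ps, read 1.08, 0.547 and 0 TPM, and 90.4% of its 31-base words also occur in other annotated transcripts.

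The c subunit, the proton-carrying ring of complex V, is encoded by 3 genes whose mature proteins are the same. In these leukemias Atp5g3, at chr2:73908447-73911326 on the minus strand, stood at 314, 263 and 272 TPM. Atp5g1, at chr11:96068852-96075670 on the minus strand, stood at 165, 135 and 159 TPM. Atp5g2, at chr15:102662864-102672352 on the minus strand, was listed at 0 in all 3 mice. Atp5g3 therefore made up 64.9% ± 1.57 and Atp5g1 35.1% ± 1.57 (SD, n = 3) of the sum of the 3 rows. The last 120 coding bases of the genes are shown because they tell how alike the transcripts are, read 5′ to 3′ from GENCODE M21 transcripts of the genome build GRCm38, with capitals at the 31 positions where the 3 genes do not all have the same base.
Atp5g1: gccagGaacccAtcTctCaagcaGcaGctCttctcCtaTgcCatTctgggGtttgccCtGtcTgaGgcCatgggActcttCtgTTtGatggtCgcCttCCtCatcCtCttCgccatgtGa
Atp5g2: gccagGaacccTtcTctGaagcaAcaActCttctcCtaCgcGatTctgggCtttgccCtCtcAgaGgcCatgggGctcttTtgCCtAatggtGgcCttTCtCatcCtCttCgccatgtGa
Atp5g3: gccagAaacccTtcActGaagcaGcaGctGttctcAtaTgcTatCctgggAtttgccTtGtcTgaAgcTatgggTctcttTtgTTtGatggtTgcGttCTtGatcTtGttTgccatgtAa
The last 78 codons translated to the same peptide in all 3 genes. Over 237 bases at the end of the coding sequence, Atp5g1 and Atp5g2 shared 84.8% of bases, Atp5g1 and Atp5g3 78.5%, and Atp5g2 and Atp5g3 77.2%, so these 3 genes are told apart by their letters.

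The zero of Atp5g2 has a counterpart elsewhere in the table. The row Gm10231, annotated as a processed pseudogene at chr17:5816200-5816640 on the minus strand, read 458, 377 and 369 TPM, which is above Atp5g3 in every mouse. Its annotated transcript of 441 bases is the same, letter for letter, as the 441-base transcript Atp5g2-201 and lies whole within the 731-base transcript Atp5g2-202. Reads from those stretches carry nothing that would assign them to either locus, so the values of Atp5g2 and Gm10231 are uncertain as a pair. With Gm10231 added to the sum, the shares became 47.9% ± 1.53 for Gm10231, 33.8% ± 0.287 for Atp5g3 and 18.3% ± 1.36 for Atp5g1, and the c-subunit sum was 837 ± 86.5 TPM in place of 436 ± 40.1 TPM. Another annotated copy, Gm10175, was listed at 0 in every mouse. Gm10231 was picked out after its values were seen.

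Other members also share sequence with copies. Of the 87 genes, 24 had at least 10% of their 31-base words in another gene's transcripts, 10 had at least 20%, and 25 had none. For Cycs, Gm10053 read 41.8, 37.9 and 54.2 TPM and has 96.6% of its words in Cycs, and Gm10108 read 35.5, 34.0 and 38.6 TPM with 87.9%. Cycs and these 2 rows summed to 124, 136 and 161 TPM, so mouse 1 stayed the lowest and mouse 3 the highest. For Atp5g1, Gm10039 read 86.6, 64.4 and 81.8 TPM and has 92.9% of its words in Atp5g1. The levels of Cycs, Atp5g1, Atp5g2 and Atp5l2 are therefore uncertain by the amounts that such copies hold. Other members are not free of this, among them Uqcrb with 32.4%, Ndufs5 with 26.5% and Atp5h with 25.4% of their words shared. In all, 15 members had an expressed copy with at least 20% of the copy's words in the member, and 4 of these copies reached a mean of 10 TPM. These counts were not made over all genes.

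As a set, the members varied less between the 3 leukemias than expressed genes in general. Their median log2 SD was 0.148, beside 0.208 over all expressed genes and 0.178 over the 3037 expressed genes above percentile 80 of level. After scaling to a common upper quartile the 3 values were 0.144, 0.194 and 0.163. Complex I alone stood at 0.168 as deposited and at 0.173 after scaling, the latter above the 0.163 of the high genes. No expressed member differed 2-fold between its highest and its lowest mouse, beside 2092 of 15181 expressed genes (13.8%) and 125 of the 3037 above percentile 80 of level (4.12%). The 10 members with the widest log2 SD were Cox6c, Ndufa13, Ndufa5, Atp5j2, Ndufv1, Ndufb7, Atp5sl, Cycs, Ndufb3 and Ndufs6. Of these, Ndufa5 stood at 30.1, 31.7 and 45.6 TPM, Ndufb7 at 50.6, 55.3 and 74.4 TPM and Ndufb3 at 43.7, 41.2 and 59.5 TPM. These 3 supernumerary subunits of complex I were highest in mouse 3, as were Ndufa13, Cox6c, Atp5j2 and Cycs. Ndufs6, which stood at 95.7, 72.2 and 101 TPM, was also highest in mouse 3, but mouse 1 lay close to mouse 3 and mouse 2 stood apart. Ndufv1 and Atp5sl were highest in mouse 1.

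The order of the mice was uneven. Among the 81 expressed members, mouse 2 was the lowest for 61 (75.3%) and the highest for 1, Ndufa2. Over all expressed genes mouse 2 was lowest for 33.0% and highest for 31.1%. Mouse 3 was the highest for 42 members (51.9%), against 20.3% of all expressed genes, and the lowest for 4, against 42.6%. Mouse 1 was the highest for 38 members (46.9%), close to its share of 48.6% among all expressed genes, and the lowest for 16, against 24.4%. The differences behind these counts were small. The median difference of mouse 2 from mouse 1 on the log2 scale was -0.16 for members, beside -0.08 for all expressed genes. After the scaling described next it was -0.07, beside -0.0009. For members, mice 3 and 1 differed by a median of 0.01 as deposited and 0.16 after that scaling. Ndufa2 itself stood at 83.6, 84.2 and 82.4 TPM, so that all 3 mice were nearly alike.

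This order depends in part on how the libraries are scaled. Scaling each mouse to a common upper quartile moved the median difference of all expressed genes between mice 3 and 1 from -0.13 to 0 on the log2 scale. After it, mouse 3 was the highest for 57 members, beside 30.4% of all expressed genes, mouse 1 for 23, beside 35.6%, and mouse 2 for 1, Cox7a2l, beside 33.9%. Mouse 2 was then the lowest for 49 members, beside 33.5%, mouse 1 for 30, beside 36.0%, and mouse 3 for 2, beside 30.5%. Under both scalings mouse 2 had the fewest highest values and the most lowest values, and mouse 3 the most highest values. Mouse 3 was also the mouse with the highest sums of late neutrophil, monocyte and erythroid genes given above, and the part of these cells in the order was not tested.

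Core and supernumerary subunits of complex I differed in this respect. Relative to mouse 1, the median of the 7 core genes in mouse 3 was -0.16 on the log2 scale, and that of the 28 supernumerary genes was 0.06. After scaling to a common upper quartile the 2 medians were -0.02 and 0.20. The highest mouse was mouse 1 for 6 core genes and mouse 3 for 1. For supernumerary genes it was mouse 1 for 9, mouse 2 for 1 and mouse 3 for 18. Over all expressed genes mouse 1 was the highest for 48.6% and mouse 3 for 20.3%. After scaling, mouse 3 was the highest for 3 of 7 core genes (42.9%) and for 23 of 28 supernumerary genes (82.1%), beside 30.4% of all expressed genes. Mouse 1 was then the highest for 4 core genes (57.1%) and 5 supernumerary genes (17.9%), beside 35.6%. Transcript length moved with these differences to a slight degree. Across the 81 expressed members, Spearman's rho between the median length of a gene's coding transcripts and its mouse 3 to mouse 1 difference was -0.209, a description over genes that share 2 libraries. Its part in the order was not tested.

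**Figure D3:**
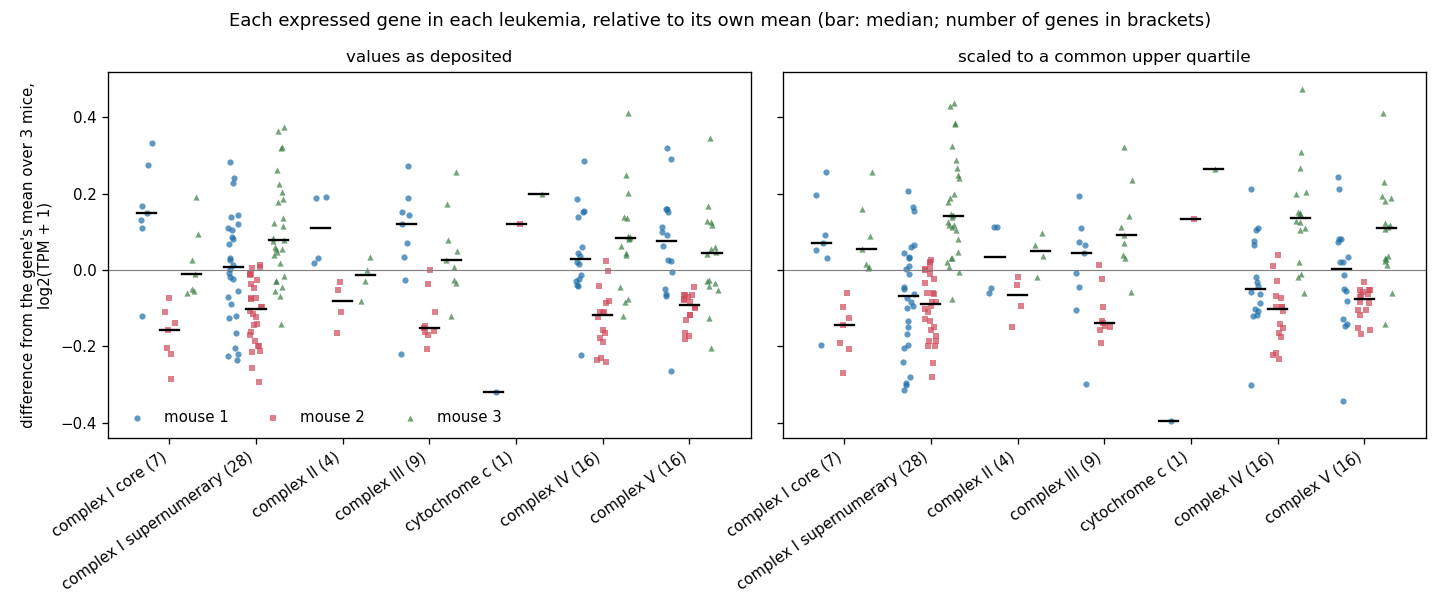
Difference of each expressed member in each mouse from that gene's own mean over the 3 mice, in log2(TPM + 1) units, by complex; the left panel has the values as deposited and the right panel the values scaled to a common upper quartile, with bars at medians. Squares (mouse 2) lie mostly below 0 in both panels, and triangles (mouse 3) move up against circles (mouse 1) after scaling.

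The subunits encoded by the mitochondrial genome stood far above their nuclear partners, and mouse 3 stood further apart in them. Their sums were 38656, 35582 and 47343 TPM in mice 1, 2 and 3, beside 12371, 11121 and 12466 TPM for the nuclear members. Both sums were highest in mouse 3 and lowest in mouse 2. The median of the 13 mitochondrial genes was 12.9, 16.7 and 23.5 times the median of the 81 nuclear members in mice 1, 2 and 3. Over expressed genes of 1 complex, the ratio for complex IV was 33.0, 34.4 and 36.3, for complex I 11.2, 13.9 and 18.6, for complex V 14.6, 15.6 and 22.6 and for complex III, with mt-Cytb alone, 9.59, 10.5 and 14.1. The ratio was highest in mouse 3 for all 4 complexes, and the 3 mice lay closest together for complex IV. All 13 mitochondrial genes were highest in mouse 3 under both scalings, with a median difference of 0.51 between mice 3 and 1, beside 0.01 for the nuclear members. The labels name both a ribosomal RNA depletion and an mRNA kit. Transcripts of the mitochondrial genome can be captured unequally by such methods, so the ratio holds for these libraries.

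Genes that build or regulate the complexes were set beside their subunits. Of 46 assembly factors listed, 39 were in the table and all 39 were expressed, at a median position of percentile 53.5. Their highest gene was Cox16 at 87.3, 82.7 and 78.2 TPM, below the median member in each mouse, which stood at 107, 87 and 101 TPM. The lowest was Lyrm7, a chaperone of the Rieske protein, at 4.18, 2.95 and 7.0 TPM. Cox17, the copper chaperone of complex IV, stood at 38.3, 52.3 and 73.3 TPM and was highest in mouse 3, while Sco2, which also delivers copper to complex IV, stood at 10.3, 3.35 and 3.09 TPM and was high in mouse 1 alone. Mouse 1 was the highest for 26 of the 39 factors (66.7%), beside 48.6% of all expressed genes, mouse 2 for 4 and mouse 3 for 9. The 9 are 23.1% of the factors, beside 51.9% of the subunits and 20.3% of all expressed genes. After scaling to a common upper quartile, mouse 1 and mouse 3 were each the highest for 17 factors (43.6%) and mouse 2 for 5. Among all expressed genes the shares were then 35.6% for mouse 1 and 30.4% for mouse 3, both below 43.6%.

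Of the 13 regulators of mitochondrial genes, 12 were expressed. Myc was the highest, at 258, 167 and 160 TPM. Ppargc1a, the coactivator known for raising mitochondrial content in muscle and brown fat, was the lowest, at 0.943, 0.782 and 1.03 TPM, and its relatives Ppargc1b and Pprc1 stood at 13.5, 11.7 and 8.22 TPM and at 77.7, 73.0 and 63.8 TPM. Among factors that bind promoters of respiratory genes, Nrf1 stood at 53.5, 50.1 and 54.5 TPM, Gabpa at 58.5, 52.8 and 56.7 TPM and Yy1 at 79.5, 74.0 and 76.5 TPM, with the mice close together. Gabpb1, the partner of Gabpa, stood at 59.5, 41.7 and 47.4 TPM and was highest in mouse 1, and Esrra, an orphan nuclear receptor, stood at 49.5, 49.9 and 39.9 TPM and was lowest in mouse 3. Tfam, which packs and transcribes mitochondrial DNA, stood at 62.9, 39.8 and 50.8 TPM, lowest in mouse 2. Mouse 1 was the highest for 9 of the 12 expressed regulators as deposited, beside 48.6% of all expressed genes. After scaling to a common upper quartile, mouse 1 was the highest for 6 of the 12, beside 35.6% of all expressed genes. With 12 genes these counts are a description only.

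**Figure D4:**
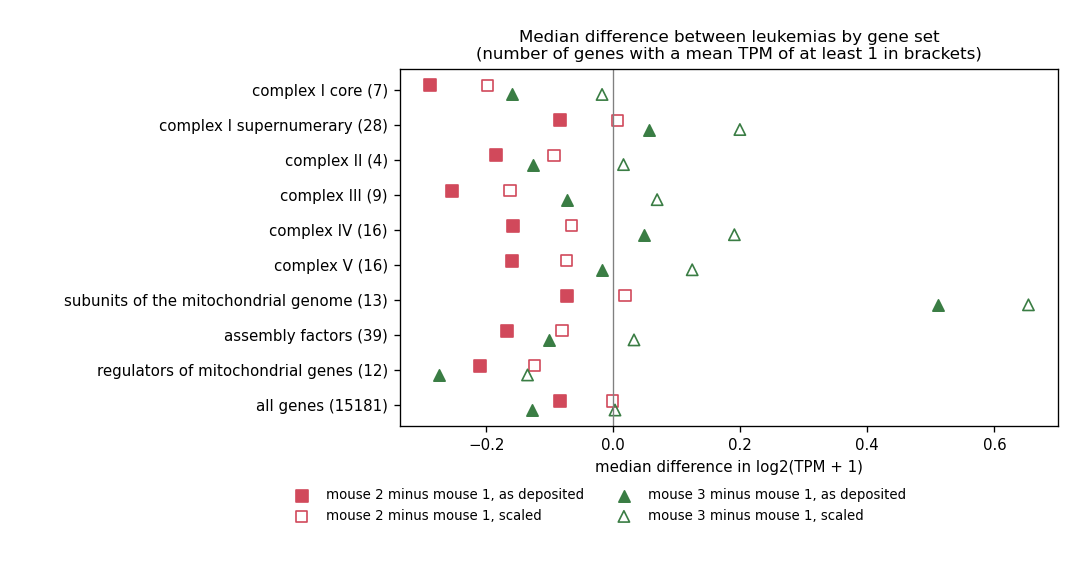
Median difference of mice 2 and 3 from mouse 1 for each gene set, in log2(TPM + 1) units, as deposited (filled) and scaled to a common upper quartile (open). The 13 genes of the mitochondrial genome lie at 0.51 for mouse 3 as deposited, to the right of every other set drawn, and mouse 2 lies below 0 for each set drawn as deposited.

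Promoter letters were read for what the members share beyond their names. RefSeq promoters of build GRCm38.p6, from 250 bases before to 50 after each start, were found for 67 of the 87 genes, and short motifs were sought on both strands. GCGCATGC, the core of the site of NRF1, occurred in 11 of 67 members (16.4%), beside 3.05% of 27025 genes and 5.77% of 9935 expressed genes with such a promoter. The match in each is shown with its flanks, in the direction of transcription, capitals marking the core or its complement; the core overlaps its own complement where the letters GCGCATGCGC stand. Of the 11, 9 had the whole core before the start, Uqcr11 had it across the start and Uqcrc1 after it.
Cycs, chr6:50566611-50566640, minus strand: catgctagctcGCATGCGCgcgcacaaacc
Sdhb, chr4:140961206-140961235, plus strand: aagcccagtggGCATGCGCcctacgggccg
Ndufa6, chr15:82354356-82354385, minus strand: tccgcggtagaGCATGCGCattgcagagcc
Ndufa8, chr2:36049328-36049357, minus strand: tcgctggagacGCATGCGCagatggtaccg
Ndufa11, chr17:56717691-56717720, plus strand: acctgcactgcGCGCATGCgcgcacgcctt
Uqcr11, chr10:80406807-80406836, minus strand: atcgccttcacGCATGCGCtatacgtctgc
Uqcrc1, chr9:108936667-108936696, plus strand: gactccgctctGCGCATGCgcagcgcggct
Cox6a1, chr5:115349102-115349131, minus strand: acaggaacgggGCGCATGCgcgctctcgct
Atp5g2, chr15:102671071-102671100, minus strand: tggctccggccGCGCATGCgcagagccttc
Atp5k, chr5:108434431-108434460, minus strand: ctttcactgcgGCGCATGCgcctttctggc
Atp5l, chr9:44920964-44920992, minus strand: aaccaataacGCATGCGCatttcccccac
Every complex had at least 1 such member. Their levels ran from Atp5g2, listed at 0, and Ndufa11 at a mean of 11.1 TPM to Atp5l at 361 TPM, so members with the core were found at both ends of the range.

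AAGATGGC, the core of the YY1 site, was found in 9 of 67 members (13.4%), beside 3.19% of all genes and 5.12% of expressed genes, and 7 of the 9 belonged to complex I. The sequences ended 50 bases after the start, so a match further downstream could not be seen. In 8 of the 9 the core lay after the start, in the direction of transcription. Its first base was between 23 and 39 bases downstream, and in all 8 the ATG inside it was an annotated start codon. Only Atp5j had it before the start, at base -88. The core in this window of 50 bases, in this direction, was found in 11.9% of members, beside 2.36% of expressed genes and 1.04% of all genes. This window and direction are where the members' own matches lay, so the contrast favours the members and cannot be read as support. The 7 of complex I are shown, with capitals marking the core.
Ndufa3, chr7:3617384-3617413, plus strand: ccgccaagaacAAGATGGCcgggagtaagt
Ndufa9, chr6:126849097-126849126, minus strand: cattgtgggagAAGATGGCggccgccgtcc
Ndufb8, chr19:44555393-44555415, minus strand: cggagaaggtgAAGATGGCtgcc
Ndufc1, chr3:51408915-51408944, minus strand: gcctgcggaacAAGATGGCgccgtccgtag
Ndufs4, chr13:114388045-114388070, minus strand: ttgcctacaggAAGATGGCggcggtc
Ndufs6, chr13:73328433-73328460, minus strand: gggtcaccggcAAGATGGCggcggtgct
Ndufs7, chr10:80249462-80249491, plus strand: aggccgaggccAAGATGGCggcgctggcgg
A match is a run of letters and not a bound site. These 7 genes were no level class of their own, since they ran from Ndufs4 at 26.3, 29.4 and 33.6 TPM and Ndufc1 at 53.5, 54.6 and 55.0 TPM to Ndufa3 as given above.

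The other motifs were less set apart. CCGGAAG, a site of ETS factors such as GABP, occurred in 16 members (23.9%), beside 19.2% of expressed genes. TGCGCA, a shorter NRF1 motif that the core can overlap, occurred in 17 (25.4%), beside 15.3%. CCAAT occurred in 30 members (44.8%), beside 43.1%, and TATAAA in 7 (10.4%), beside 9.0%. CACGTG, the E-box that Myc can bind, occurred in 5 (7.46%), beside 11.5%. GGGCGG, the GC box, was the only motif of these 8 with a share far below that of expressed genes, at 27 members (40.3%) beside 65.2%, and close to the 38.2% of all genes. The motifs were chosen from textbook knowledge of respiratory genes with the values known, and no test was made.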

How the data were processed

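RNA of 3 leukemias was measured by sequencing of 150 nt read pairs, per the labels. The authors deposited 1 table per gene symbol, and its linear values were treated as TPM because the 3 columns summed to nearly the same total; its name speaks of log2 FPKM. Per the submitters' processing notes, kallisto and mm10 were used. Of 28987 rows, 795 without a symbol (at most 0.608% of a column) and 27 with a date as symbol (at most 0.202%) were left out, and 90 symbols on several rows were summed, none of them a member. The table's 3 other per-sample columns were not used here. With 1 group, no test between groups could be made, and differences between genes or gene sets within the 3 mice are given as values without a test. Nothing in the labels links the 3 mice beyond their group, and mouse numbers only follow the order of their records.

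Levels, shares and SDs were computed with biopython 1.88, scipy 1.17.1, numpy 2.4.6 and pandas 2.3.3 in Python 3.11.15, on the log2 scale with a pseudocount of 1; figures used matplotlib 3.10.9. The steps were tested on simulated data. Shared 31-base words, positions and codons came from GENCODE M21 (all 87 members matched, GRCm38), and promoters from RefSeq. Members, gene lists (complex parts, isoforms, assembly factors, regulators, partners, cell type markers) and motifs were chosen with earlier results of these data known. Values of some single genes are not reported here. Named genes are the 3 highest and 3 lowest per complex, all isoforms, core, F1 and c-subunit genes, complex II, Cycs, the 10 widest, and the highest and lowest of the other lists; further genes were chosen after their values were seen. Alternatives changed the pseudocount, the filter, the scaling and the mice used.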

Additional observations from a re-analysis of the deposited data

How the results depend on the processing

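Depth is unknown, and with 1 library per mouse no error within a mouse is available. The SD over 3 mice is made of the differences between them, so it cannot judge 1 mouse against another. Orders of the mice are therefore descriptions of these 3 libraries. No paired analysis was possible between groups because the mice form a single group. Restricting to genes with a mean of at least 1 or at least 5 TPM raised the median log2 level of complex IV from 7.33 to 7.74 and 7.79, of complex V from 7.62 to 7.68 and 7.68, and of all members from 6.63 to 6.85 and 6.87, since unexpressed isoforms drop out, and complex IV then stood above complex V. The median spread between mice of 0.148 fell to between 0.104 and 0.129 when 1 mouse was left out. An SD over 2 mice tends to be smaller than an SD over 3, so this fall cannot be read as a change in spread. No other cause was tested. Scaling to a common upper quartile, which cannot change a share of the column sum, moved members highest in mouse 1 from 38 to 23, lowest in mouse 1 from 16 to 30 and lowest in mouse 3 from 4 to 2. It also turned the sign of the median mouse 3 to mouse 1 difference for assembly factors (-0.10 to 0.03), complex II (-0.13 to 0.02), complex III (-0.07 to 0.07) and complex V (-0.02 to 0.12), and of the mouse 2 to mouse 1 difference for supernumerary genes (-0.08 to 0.01) and mitochondrial genes (-0.07 to 0.02). Adding Gm10231 to Atp5g2, chosen after seeing the data, gave c-subunit shares of 18.3% for Atp5g1, 47.9% for Atp5g2 and 33.8% for Atp5g3. Another 151 recomputed counts, shares, medians and spreads and 348 single gene levels stayed within 1 SD of their reported value or, for counts, within 1.5 times it. Many of these could not have moved, so the totals do not measure robustness. A mean over 3 mice always shifts by less than 1 SD when 1 mouse is left out. The pseudogene row that was added, Atp5l-ps1, was listed at 0, and scaling cannot change a share.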

Other observations

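Carriers that serve the complexes from outside them followed other orders. Ucp2, a carrier of the inner membrane, was the highest gene of this list, at 791, 946 and 655 TPM, and was highest in mouse 2. Slc25a5, the ADP and ATP exchanger, stood at 625, 470 and 445 TPM, its relative Slc25a4 at 64.4, 55.8 and 49.7 TPM, and Slc25a31, the form of testis, was listed at 0. Slc25a3, the phosphate carrier, stood at 381, 294 and 281 TPM. All 3 expressed exchangers and carriers of ATP synthesis were highest in mouse 1 and lowest in mouse 3. Atpif1, the inhibitor of the ATP synthase, had the reverse order, at 337, 369 and 535 TPM. Its value in mouse 1 was below that of Atp5a1 and in mice 2 and 3 above it.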
